A study of Mus musculus with 6 samples.

Results

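The mouse genes described here encode 9 proteins that bind microtubules or tubulin: *Tppp*, *Tppp3*, *Map1b*, *Map2*, *Map4*, *Mapt*, *Stmn1*, *Dpysl2* and *Clasp2*. They were taken by symbol from the deposited table of 56748 gene identifiers. All 9 were among the 18188 genes with enough counts to be tested. The list was selected on counts and FPKM values of the LiCl and control samples compared below, so the values of its members in that comparison are a description and carry no p-value. RNA-Seq was performed on ureters of wildtype NMRI embryos at embryonic stage E12.5 that had been explanted onto membranes and kept in culture for 18 h. In 3 samples the medium held 15 mM LiCl, and 3 control samples received water. The study used LiCl, an inhibitor of the kinase GSK3B, to activate canonical WNT signaling. The comparison asks which transcripts differ after 18 h with LiCl. Changes that follow from WNT signaling and other effects of LiCl cannot be told apart in these samples. The labels do not state how many embryos contributed to a sample, so the spread between replicates may be partly technical. Total counts ranged from 28473436 to 31266945 per sample and overlapped between the groups.

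Microtubules are hollow polymers of alpha- and beta-tubulin that grow and shrink at their ends. Microtubule-associated proteins (MAPs) such as tau, MAP2, MAP1B and MAP4 bind along the polymer and stabilise it, TPPP proteins promote tubulin assembly and bundle microtubules, stathmin sequesters tubulin dimers, the collapsin response mediator CRMP2 carries dimers to growing ends, and CLASP proteins hold on to the growing plus end. Several of them, among them tau, MAP1B, CRMP2 and CLASP2, are known phosphorylation substrates of GSK3. RNA-Seq measures the transcripts and not the phosphorylation of these proteins.

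In the LiCl-treated ureters, both TPPP genes stood far above the controls, whereas the other 7 genes differed by less than 1 log2 unit. *Tppp* was 41.7-fold and *Tppp3* 9.27-fold higher. *Map4* and *Dpysl2* were lower in every LiCl sample than in any control, *Stmn1* and *Clasp2* slightly higher, and the neuronal genes *Map1b* and *Map2* overlapped between the groups. The study set a threshold on the adjusted p (under 0.05) together with a minimum change of 1 log2 unit, and by this measure 2 of the 9 genes were called higher, compared with 2.74% of all tested genes. With edgeR, 0 of the 9 were called lower, compared with 4.59% of all tested genes, and the count was 0 also at an unadjusted p under 0.05 with the same fold change minimum and with DESeq2. At the adjusted p alone, 4 were higher and 4 lower, where 21.1% and 22.4% of all tested genes were. The CPM values (counts scaled to a common library size with TMM factors) of both groups did not overlap for 7 of the 9 genes, and for 54.2% of all tested genes. For *Mapt*, 1 of the 7, this rests on 18.4 CPM in LiCl replicate 2 against 18.5 CPM in control replicate 3. Its FPKM values, 2.44 and 2.43 in these samples, overlapped.

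**Figure D1:**
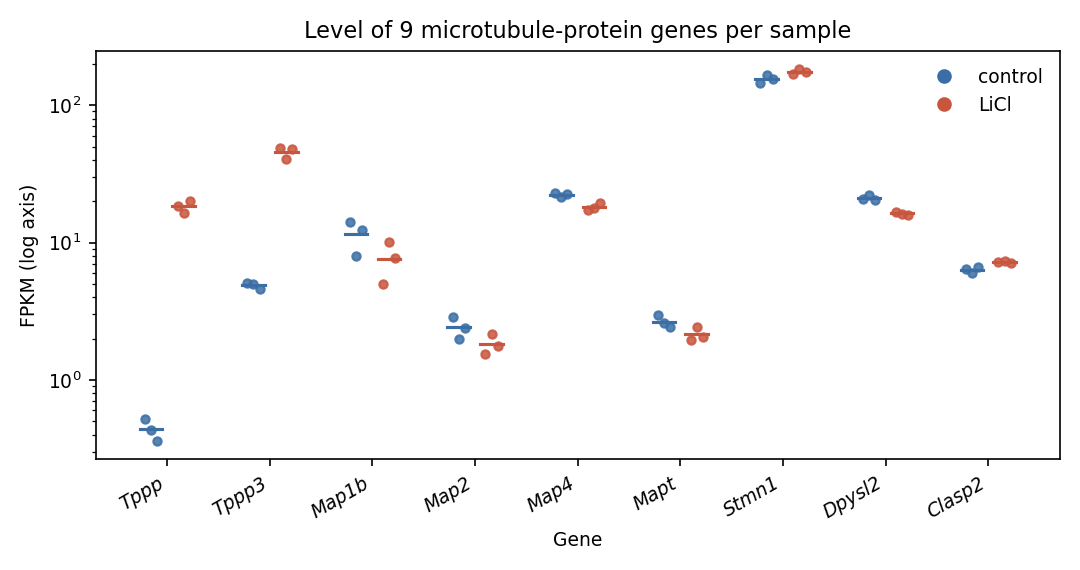
Level of each of the 9 genes as FPKM on a log axis. Points are the 3 samples of a group, horizontal lines their mean, with controls in blue and LiCl in red. *Tppp* moved from a mean of 0.437 to one of 18.4 FPKM and *Tppp3* from 4.87 to 45.7 FPKM.

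*Tppp* (ENSMUSG00000021573) encodes the tubulin polymerisation-promoting protein, best known from myelinating oligodendrocytes of the brain. Its level was 0.516, 0.433 and 0.361 FPKM (fragments per kilobase of exon, scaled to sequencing depth) in control replicates 1 to 3. In the LiCl samples it was 18.5, 16.5 and 20.2 FPKM. These values rest on 77, 69 and 57 counts in the controls and on 2933, 2356 and 2898 counts after LiCl. The lowest LiCl sample thus lay far above the highest control, and the gene moved from the lowest level of the 9 genes to the third highest. The log2 fold change was 5.38 (SE 0.12), the 3rd largest among the 18188 tested genes.

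The RefSeq table of mouse assembly GRCm38.p6 holds promoter windows for 5 of the 9 genes. The 250 bases before the start of *Tppp*, chr13:74009169-74009418 on the plus strand, are shown because this gene had the largest fold change of the 9. Capitals mark a GC box, GGGCGG, searched on both strands.
*Tppp* upstream window: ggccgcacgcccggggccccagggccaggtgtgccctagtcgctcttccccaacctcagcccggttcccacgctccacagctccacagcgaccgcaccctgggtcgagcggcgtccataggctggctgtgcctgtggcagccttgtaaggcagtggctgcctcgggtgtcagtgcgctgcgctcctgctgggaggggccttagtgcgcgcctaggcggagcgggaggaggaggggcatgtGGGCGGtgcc
Of these bases, 71.6% are G or C, more than in 92.7% of the 32851 RefSeq windows of the same length. The GC box occurs once in it, and 32.7% of all windows hold at least 1. The letters bound by TCF/LEF factors, the DNA-binding partners of beta-catenin, were searched on both strands as CTTTG followed by A or T and again by A or T. They are not in this window, whereas 14.8% of all windows hold at least 1. The same holds for the 7 other windows listed for *Map1b*, *Map2*, *Map4* and *Clasp2*. These letters describe a short window, and sites farther away were not searched.

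*Tppp3* (ENSMUSG00000014846) encodes a shorter TPPP protein that lacks the N-terminal extension of TPPP and is used as a marker of tendon sheath cells. Its level was 5.06, 4.98 and 4.57 FPKM in control replicates 1 to 3 and 49.1, 40.4 and 47.6 FPKM in LiCl replicates 1 to 3. Again the groups were widely separated, and the log2 fold change was 3.21 (SE 0.09), the 23rd largest of all tested genes. Because *Tppp* changed more than *Tppp3*, the share of *Tppp* in the summed FPKM of both genes was between 7.33% and 9.24% in the controls and between 27.4% and 29.8% after LiCl. *Tppp3* remained the more abundant of the pair in every sample. The remaining family member, *Tppp2*, had 1 count in control replicate 3 and 0 counts in the other 5 samples, so no fold change can be given.

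The TPPP genes are markers of other cell types, whose genes were therefore examined. Of 8 oligodendrocyte genes, 4 were tested and 0 passed an adjusted p under 0.05 with edgeR, nor did any at an unadjusted p under 0.05 or with DESeq2. Their summed level was 86.2 to 101 CPM in the controls and 83.6 to 91.5 CPM after LiCl, *Nkx2-2* had no count in any sample, and *Olig1*, *Olig2* and *Opalin* were too low to be tested. In the list of tendon and tendon sheath genes, 5 of 7 were tested, of which 1 rose and 2 fell. *Prg4*, which encodes lubricin, rose (log2 fold change 1.37, SE 0.35, adjusted p = 0.011 with edgeR), and the tendon genes *Scx* and *Fmod* fell, by 0.46 and by 1.19 on the log2 scale. The *Prg4* values are low and rest on 12, 7 and 7 counts in control replicates 1 to 3. LiCl replicates 1 to 3 held 28, 18 and 20 counts of this gene. *Tnmd*, a defining tendon marker, stayed below the filter, and the summed level was 14.7 to 15.7 CPM in the controls and 9.95 to 10.4 CPM after LiCl. For motile cilia, 1 of 7 tested genes rose (*Ccdc39*, 0.54, SE 0.09) and 1 fell (*Foxj1*, -0.98, SE 0.20), with a summed level of 17.1 to 17.2 CPM in the controls and 20.6 to 22.0 CPM after LiCl. The part of rarer cell types in the TPPP values was not tested further. In whole explants, fewer cells of a type and less RNA per cell cannot be told apart.

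LiCl replicates 1 and 3 held more transcripts of skeletal muscle than LiCl replicate 2. The summed level of 12 skeletal muscle genes was 34.9, 7.41 and 72.5 CPM in LiCl replicates 1 to 3 and 5.71 to 7.25 CPM in the controls. With LiCl replicate 2 as the sole LiCl sample, its variability taken from the controls, the log2 fold change was 5.24 for *Tppp* and 3.05 for *Tppp3*. The explants expressed genes of ureteric mesenchyme such as *Tbx18* and of ureteric epithelium such as *Cdh1*, both markers of the labelled tissue. *Tbx18* was at 77.2 ± 4.86 FPKM in the controls (SD, n = 3) and at 52.2 ± 2.31 FPKM after LiCl. *Cdh1* was at 62.5 ± 5.77 FPKM in the controls and at 31.9 ± 0.996 FPKM after LiCl. At an adjusted p under 0.05 (edgeR), 7 of 9 mesenchymal genes and 10 of 12 epithelial genes fell after LiCl. Of all tested genes, 22.4% fell. The epithelial gene *Epcam* rose, from 56.2 ± 3.99 to 73.7 ± 0.167 FPKM (log2 fold change 0.37, SE 0.06). Of 10 WNT target genes, 9 rose, among them *Axin2* with a log2 fold change of 0.92 (SE 0.05).

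**Figure D2:**
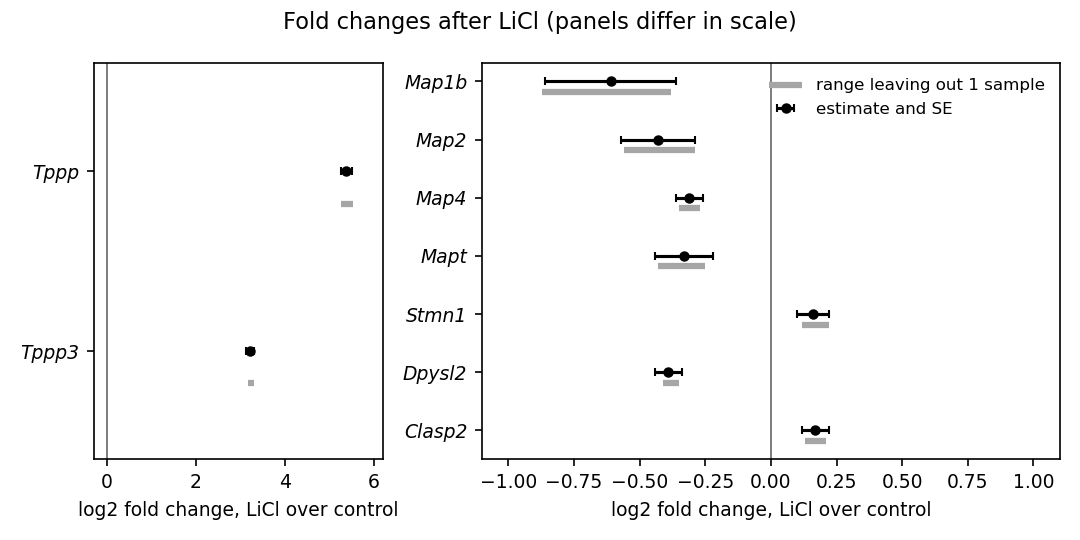
Log2 fold change of each gene, LiCl over control, with its standard error in black (edgeR, 3 samples per group). Grey bars span the estimates when 1 of the 6 samples is left out. Both TPPP genes are in the left panel, which has a wider scale. *Map1b* has the widest bar, from -0.87 to -0.38.

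Among the structural MAPs, *Map4* (ENSMUSG00000032479), the widely expressed MAP of non-neuronal tissues, was the most abundant. It was at 22.8, 21.4 and 22.5 FPKM in the controls and at 17.4, 17.8 and 19.3 FPKM after LiCl. The groups did not overlap, and the log2 fold change was -0.31 (SE 0.05). *Mapt* (ENSMUSG00000018411), which encodes tau, was at 2.95, 2.60 and 2.43 FPKM in the controls and at 1.95, 2.44 and 2.04 FPKM after LiCl. The highest LiCl value was thus level with the lowest control, and the log2 fold change was -0.33 (SE 0.11). *Map2* (ENSMUSG00000015222), the dendritic MAP of neurons, was at 2.85, 2.00 and 2.37 FPKM in the controls and at 1.54, 2.14 and 1.75 FPKM after LiCl. LiCl replicate 2 lay above control replicate 2, so the groups overlapped, and the log2 fold change was -0.43 (SE 0.14). *Map1b* (ENSMUSG00000052727), the MAP of growing axons, was at 14.0, 8.04 and 12.4 FPKM in the controls and at 5.01, 10.1 and 7.74 FPKM after LiCl. Its replicates varied most of the 9 genes, with a coefficient of variation in CPM of 27.5% in the controls and 33.7% after LiCl. The log2 fold change of *Map1b* was -0.61 (SE 0.25), larger than that of *Map4* and with a larger error.

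The spread of *Map1b* went along with the level of long transcripts across the samples. The median deviation of 2638 other genes with at least 8000 exonic bases and 1 CPM from their own mean was 0.083, -0.085 and 0.019 on the log2 scale in the 3 controls in turn, and -0.057, 0.045 and 0.002 in the 3 LiCl samples. *Map1b*, with 15846 bases, deviated from its group mean in the same order, by 0.34, -0.48 and 0.14 in the controls and by -0.55, 0.47 and 0.08 after LiCl. *Map2*, with 16456 bases, deviated by 0.27, -0.26 and -0.01 and by -0.22, 0.26 and -0.04, again in that order. *Map4* and *Clasp2* are of similar length, with 15143 and 15378 bases, but their values spanned at most 0.15 log2 units within either group. When the level of long transcripts was entered as a covariate (chosen once these values had been seen), *Map1b* was at a log2 fold change of -0.56 and *Map2* at -0.39. The level of long transcripts followed the same order as *Map1b* and *Map2*, while *Map4* and *Clasp2* varied little. Its part in the spread of *Map1b* and *Map2* was not tested beyond this fit.

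**Figure D3:**
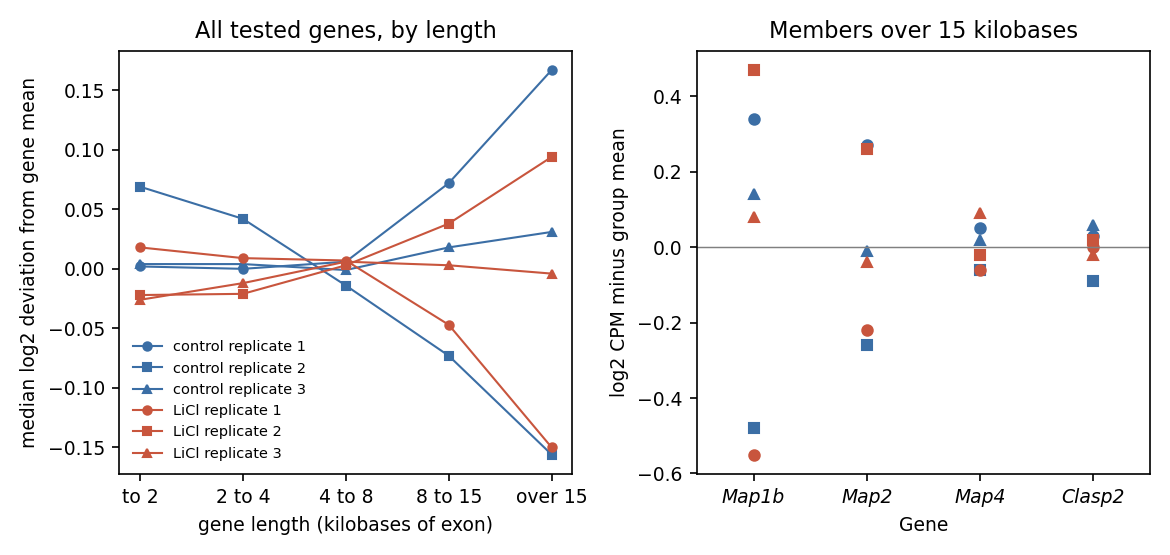
Left, median log2 deviation of all tested genes from their mean over the 6 samples, in 5 classes of exonic length, 1 line per sample. Right, deviation of the 4 genes over 15 kilobases from their group mean in log2 CPM, with the same symbols. Control replicate 2 and LiCl replicate 1 are low in the longest class, at -0.156 and -0.15, and lowest in their group for *Map1b* and *Map2*.

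*Map1b*, *Map2* and *Mapt* are abundant in neurons, and the explants held neuronal transcripts. Of 15 neuronal genes, 6 fell and 0 rose after LiCl (edgeR, 0 rose at an unadjusted p under 0.05 and 0 with DESeq2). Among all tested genes, 22.4% fell and 21.1% rose. The noradrenergic enzyme gene *Dbh* fell from 22.9 ± 3.16 to 7.40 ± 2.32 FPKM (SD, n = 3, adjusted p = 0.00019), whereas the neurofilament gene *Nefm* was at 33.5 ± 3.03 and 32.9 ± 5.24 FPKM. The summed level of the list was 757, 708 and 853 CPM in control replicates 1 to 3 and 531, 735 and 622 CPM in LiCl replicates 1 to 3. Within the LiCl group, this sum and *Map1b*, *Map2* and *Mapt* were all highest in replicate 2 and lowest in replicate 1. In the controls the orders differed: the sum was highest in replicate 3, in which *Mapt* was lowest, and the 3 genes were highest in replicate 1. With LiCl replicate 2 as the sole LiCl sample, the log2 fold changes were -0.19 for *Map1b*, -0.18 for *Map2* and -0.13 for *Mapt*, compared with -0.32 for *Map4*. The part of neurons in the values of these genes was not tested.

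Of the proteins that bind tubulin dimers, stathmin is encoded by *Stmn1* (ENSMUSG00000028832), a gene of proliferating and neural cells and the most abundant of the 9. It was at 144, 166 and 155 FPKM in the controls and at 170, 183 and 175 FPKM after LiCl. The lowest LiCl sample exceeded the highest control only slightly, and the log2 fold change was 0.16 (SE 0.06). *Dpysl2* (ENSMUSG00000022048), which encodes CRMP2, was at 20.6, 22.1 and 20.4 FPKM in the controls and at 16.7, 16.2 and 15.9 FPKM after LiCl. These groups were clearly apart, with a log2 fold change of -0.39 (SE 0.05). The plus-end gene *Clasp2* (ENSMUSG00000033392) was at 6.44, 5.98 and 6.61 FPKM in the controls and at 7.23, 7.31 and 7.15 FPKM after LiCl. Its LiCl values were close together and all above the controls, at a log2 fold change of 0.17 (SE 0.05).

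In the order of mean FPKM, the controls ran from *Stmn1* (155) over *Map4* (22.2), *Dpysl2* (21.1), *Map1b* (11.5), *Clasp2* (6.34), *Tppp3* (4.87), *Mapt* (2.66) and *Map2* (2.41) to *Tppp* (0.437). The replicates of *Map4* and *Dpysl2* and those of *Mapt* and *Map2* overlapped, and all other neighbours in this order were apart. After LiCl, *Stmn1* (176) was followed by *Tppp3* (45.7), *Tppp* (18.4), *Map4* (18.2), *Dpysl2* (16.3), *Map1b* (7.63), *Clasp2* (7.23), *Mapt* (2.14) and *Map2* (1.81). Here *Tppp* and *Map4*, *Map1b* and *Clasp2*, and *Mapt* and *Map2* overlapped.

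Over 17 alternative fits, the log2 fold change lay between -0.35 and -0.27 for *Map4*, between -0.42 and -0.35 for *Dpysl2*, between 0.13 and 0.21 for *Clasp2* and between 0.12 and 0.23 for *Stmn1*. It ranged more widely for *Map1b* (-0.87 to -0.19), *Map2* (-0.56 to -0.18) and *Mapt* (-0.43 to -0.13). When 1 sample was left out, *Tppp* ranged from 5.27 to 5.52 and *Tppp3* from 3.16 to 3.30 on the log2 scale. On the log2(FPKM + 1) scale, which compresses low values, *Tppp* was at 3.75 and *Tppp3* at 2.99.

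Because the strand setting of the counting is not given in the sources used here, the genes next to both TPPP genes were examined for shared reads. *Gm15912*, a long noncoding RNA gene, directly precedes *Tppp* in the RefSeq table without overlapping it. It was covered by 8, 6 and 6 fragments in control replicates 1 to 3 and by 87, 56 and 87 fragments in LiCl replicates 1 to 3, and rose with a log2 fold change of 3.55 (SE 0.30, adjusted p = 2.5e-05 with edgeR). Its counts were between 8.70% and 10.5% of those of *Tppp* in the controls and between 2.38% and 3.00% after LiCl, so the pair did not keep a fixed ratio. The pseudogene *Gm6263*, which overlaps *Tppp* in that table, had at most 2 counts in a sample. *Lrrc36*, which encodes a leucine-rich repeat protein and precedes *Tppp3*, rose as well, from 0.486 ± 0.127 to 2.27 ± 0.422 CPM (SD, n = 3, log2 fold change 2.21, adjusted p = 0.00022). On the other side of *Tppp3*, the palmitoyltransferase gene *Zdhhc1* rose less, from 54.9 ± 3.92 to 71.2 ± 8.71 CPM (0.38, adjusted p = 0.0079). Whether transcription or reads run from one gene into the next was not tested.

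**Figure D4:**
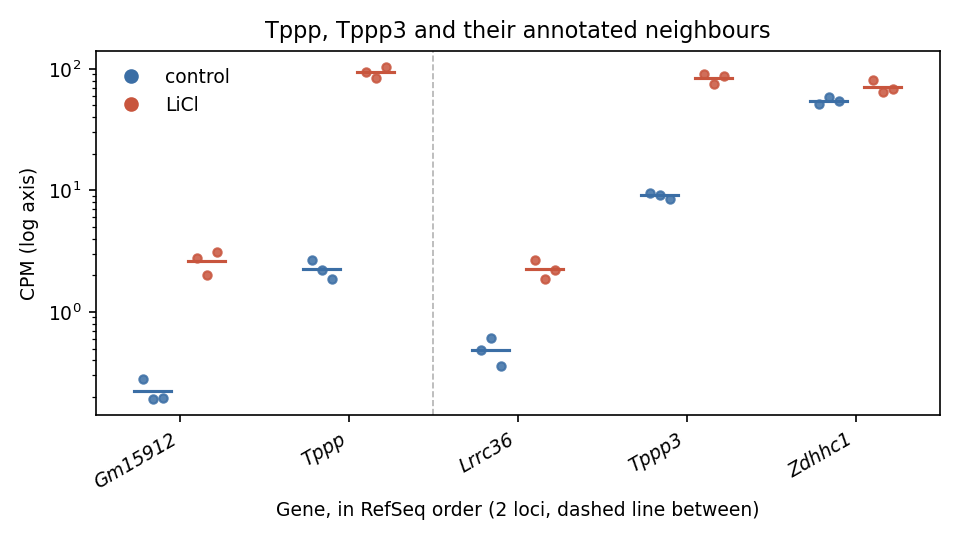
CPM on a log axis of *Tppp*, *Tppp3* and the tested genes next to them in the RefSeq order. Points are samples and lines group means, controls in blue and LiCl in red. *Gm15912* and *Lrrc36* lie below 1 CPM in every control and at 1.86 CPM or more in every LiCl sample, whereas *Zdhhc1* differs by 0.38 log2 units.

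Likeness to each gene was measured as the Euclidean distance of log2 CPM, after subtracting the control mean, over the 6 samples and 15439 candidate genes. It draws on the same contrast and is a description. The genes nearest to *Tppp* lay at larger distances than those of the other 8. They were the chemokine gene *Cxcl3* (distance 1.45, log2 fold change 5.66), the tenascin gene *Tnxb* (1.66, 4.50) and the neuropeptide receptor gene *Npffr1* (2.55, 4.38). For *Tppp3* the nearest gene was *Gm15912* (0.37), the neighbour of *Tppp*, followed by *Igfbp6* (0.44), which encodes a binding protein of insulin-like growth factors, and *Rfx2* (0.55), which encodes a transcription factor of ciliated cells. With only 8, 6 and 6 counts of *Gm15912* in the controls, its distance depends in part on the prior count of 2 added before taking logs. *Map1b* lay nearest to *Gm26627*, *Hecw1* and the semaphorin co-receptor gene *Plxna4* (0.23 each), and *Map2* to *Sorl1* (0.12), the netrin receptor gene *Unc5c* (0.15) and *Fbn2* (0.16). *Map4* lay nearest to *Srebf2* (0.03), a regulator of sterol synthesis. *Mapt* was followed most closely by *Ppp2r2b* (0.09), *Stmn1* by *Pigm* (0.05), *Dpysl2* by *Tmem203* (0.04) and *Clasp2* by *Chchd5* (0.04).

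The microtubule system beyond these 9 genes was read from 8 lists written by function, with 125 of 132 genes tested. At an adjusted p under 0.05 (edgeR), 41 of these genes (32.8%) rose and 27 (21.6%) fell, compared with 21.1% and 22.4% of all tested genes. Of the 41 that rose, 15 belong to the list of 16 spindle genes, so the pooled share does not describe the lists evenly. Over every gene tested, the median was -0.01 on the log2 scale. In the families of the 9 genes, 4 of 21 tested genes rose and 7 fell, with a median of -0.20. *Dclk2*, a doublecortin-like kinase gene, rose from 11.8 ± 0.156 to 21.6 ± 0.604 FPKM (SD, n = 3, log2 fold change 0.85, adjusted p = 1.4e-06). *Dpysl4* and *Dpysl3*, relatives of *Dpysl2*, rose by 0.55 (SE 0.06) and 0.34 (SE 0.06), whereas *Dpysl5* fell by 0.36 on the log2 scale and *Crmp1* was at -0.24 (SE 0.11) and did not pass. *Dpysl3* was the most abundant gene of this list, at 89.8 ± 5.62 FPKM in the controls. The largest decreases were those of *Dcx* (-1.05, SE 0.19), which encodes doublecortin, *Stmn2* (-0.98, SE 0.12), a relative of *Stmn1*, and *Map6* (-0.67, SE 0.17). *Dcx* and *Map6* are long, with 12647 and 9152 bases. The part of neurons and of the level of long transcripts in these decreases was not tested. *Clasp1*, the relative of *Clasp2*, was at 8.88 ± 0.600 and 8.58 ± 0.579 FPKM and did not pass.

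Of 15 tested tubulin genes, 7 rose and 3 fell, with a median log2 fold change of 0.16. *Tubb5*, the most abundant, rose from 458 ± 18.9 to 569 ± 1.02 FPKM (0.30, adjusted p = 0.00036). The largest increases were those of *Tuba1c* (1.09, SE 0.09), *Tubb6* (0.95, SE 0.08) and the epsilon-tubulin gene *Tube1* (0.92, SE 0.12). *Tubb2a*, *Tubg2* and *Tuba4a* fell by 0.56, 0.49 and 0.35 on the log2 scale. Alpha-tubulin genes are partly near-identical, so reads may be split unevenly between them. The summed CPM of the tubulin list was 2976 to 3211 in the controls and 3715 to 3789 after LiCl.

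Spindle proteins bind microtubules during mitosis, and 15 of their 16 genes rose, all of them by more than 1 log2 unit, with a median of 1.34. With edgeR 0 fell, and the count was 0 at an unadjusted p under 0.05 and with DESeq2. The kinase gene *Aurka* rose from 9.43 ± 0.973 to 31.7 ± 1.41 FPKM (SD, n = 3, log2 fold change 1.73, adjusted p = 5.5e-07). *Spag5* and *Tacc3*, whose products act at spindle poles, rose by 1.72 (SE 0.06) and 1.67 (SE 0.08). *Numa1*, the most abundant spindle gene of the list, was at 65.9 ± 4.69 and 62.7 ± 4.49 FPKM and did not pass. *Stmn1*, known as a gene of proliferating cells, was only 1.12-fold higher in the same samples.

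Among 22 tested plus-end and organising proteins, the group to which CLASP2 belongs, 4 rose and 2 fell, with a median of 0.02. *Gas2l3* (0.76, SE 0.10), the microtubule polymerase gene *Ckap5* (0.59, SE 0.08) and *Gas2l1* (0.35, SE 0.06) rose, and *Apc2* and *Clip4* fell by 0.44 and 0.40 on the log2 scale. *Clip3*, the most abundant at 50.5 ± 0.810 FPKM in the controls, differed by -0.03 (SE 0.04). Of 9 severing enzymes, 5 rose and 1 fell. The katanin-like genes *Katnal2* (0.73, SE 0.11) and *Katnbl1* (0.28, SE 0.06) and the fidgetin-like gene *Fignl1* (0.56, SE 0.05) rose, and *Fignl2* fell by 0.26 on the log2 scale. *Spast*, which encodes spastin, was at 18.9 ± 0.481 and 18.2 ± 0.116 FPKM.

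Enzymes that modify tubulin were mixed, with 4 of 20 tested genes higher and 7 lower. The ligase genes *Ttll6* (1.69, SE 0.40), *Ttll4* (0.47, SE 0.06) and *Ttll3* (0.32, SE 0.11) rose, *Ttll6* from 0.0594 FPKM only. The vasohibin genes *Vash2* and *Vash1*, whose products remove the terminal tyrosine of alpha-tubulin, fell by 0.56 and 0.41 on the log2 scale, and the deglutamylase gene *Agbl5* by 0.40. *Svbp*, which encodes the partner protein of the vasohibins, was at 35.1 ± 2.31 and 33.3 ± 0.800 FPKM and did not pass. Of 7 tubulin folding cofactors, 4 fell and 0 rose (edgeR, 0 also at an unadjusted p under 0.05 and with DESeq2), *Tbcb*, *Tbce* and *Tbcel* by 0.24, 0.23 and 0.21 on the log2 scale. The most abundant, *Tbca*, was at 68.2 ± 6.12 and 68.4 ± 5.03 FPKM.

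Among 15 genes of GSK3, microtubule-affinity and related kinases, which include both activators of CDK5, 2 rose and 3 fell. The target of LiCl itself, *Gsk3b*, was at 22.1 ± 1.26 FPKM in the controls and 22.3 ± 1.40 FPKM after LiCl (log2 fold change 0.00, SE 0.06), and *Gsk3a*, the most abundant, at 31.9 ± 0.609 and 35.1 ± 1.23 FPKM (0.12, SE 0.05). *Mark1*, a kinase gene whose product phosphorylates tau and MAP2, rose from 13.7 ± 0.465 to 26.5 ± 0.0950 FPKM (0.94, adjusted p = 1.3e-06). *Dyrk1a*, whose product phosphorylates MAPs ahead of GSK3, rose by 0.37 (SE 0.05). The CDK5 activator gene *Cdk5r2* and the LIM kinase genes *Limk1* and *Limk2* fell by 0.66, 0.30 and 0.22 on the log2 scale.

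**Figure D5:**
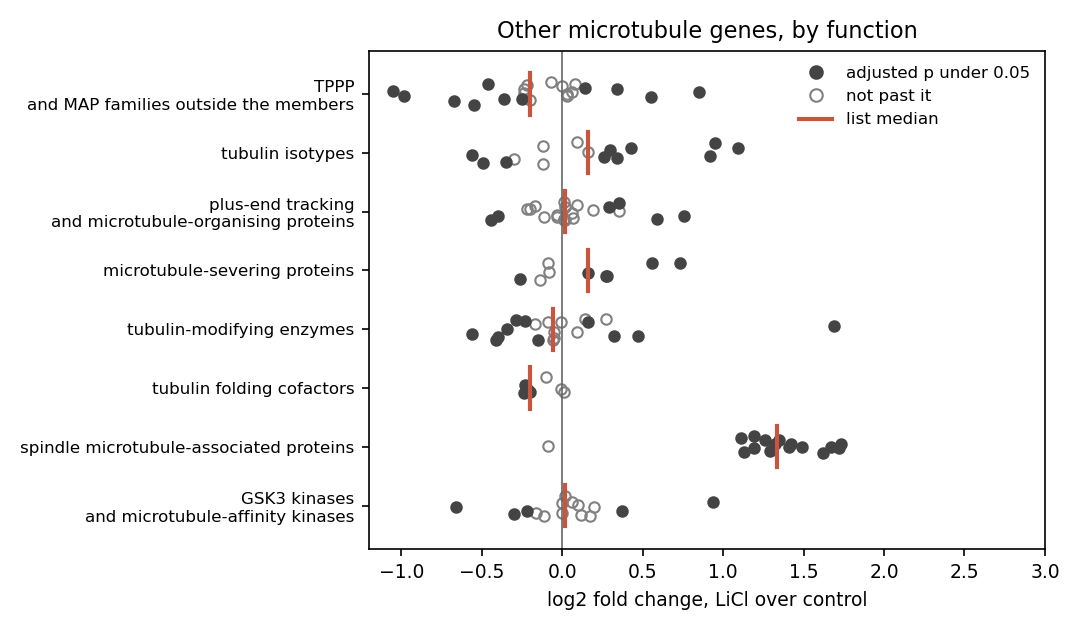
Log2 fold change, LiCl over control, of the 125 tested genes of 8 functional lists. Filled points passed an adjusted p under 0.05 (edgeR), open points did not, and red bars are list medians. The spindle list has a median of 1.34, and the medians of the other lists lie between -0.20 and 0.16.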

How the data were processed

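The deposited counts and FPKM values of 3 control and 3 LiCl samples were used. The authors made the counts from stranded, poly-A selected libraries by aligning reads to GRCm39 and counting per gene with featureCounts. The methods of the study name HISAT2 as aligner, whereas the submitters' processing notes list STAR 2.7, fastp 0.23, featureCounts 2.0 and DESeq2 1.40. The annotation release and the strand setting are not given in the sources used here. The deposited FPKM values equalled count divided by 1 factor per sample and 1 length per gene for 100% of 13480 genes with over 50 counts in every sample (tolerance 0.1%). Gene lengths were recovered in this way. The labels list the medium without serum.

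The quasi-likelihood F test of edgeR 4.0.16 (R 4.3.3) was applied to the counts after filterByExpr and TMM scaling, and p-values were adjusted by Benjamini-Hochberg over 18188 genes. SE was derived from coefficient and F. Common dispersion was 0.00665. Replicates of a group differed by more than sampling noise, so none was a copy. With 3 samples against 3, an exact permutation test cannot give p below 0.1. Scripts were tested on simulated data.

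Members and lists were chosen with earlier results of these data known. Named genes are the members, for each list up to 3 with the largest and 3 with the smallest fold change past the threshold plus the most abundant, the 3 most alike genes per member (mean of at least 1 CPM, prior count 2), the RefSeq neighbours of *Tppp* and *Tppp3*, and *Tppp2*. The text gives a selection of these. Marker genes and *Clasp1*, *Dpysl5* and *Crmp1* were named after their values were seen. Symbols came from GENCODE vM21 (52073 of 56748 identifiers, *Matcap1* unmatched), made for GRCm38, so no coordinates are given for genes. Promoter windows are from RefSeq GRCm38.p6. Alternatives changed the scaling (RLE, or library size only), the tool (DESeq2 1.42.0), the filter (none, or a minimum of 10 counts per sample) or the fold change minimum (none), added a replicate block, left out samples, or used limma 3.58.1 on log2(FPKM + 1) and log2(FPKM + 0.1), filtered at a mean FPKM of 0.5, the former also unfiltered. Last came a long-transcript covariate (added after seeing the data).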

Additional observations from a re-analysis of the deposited data

How the results depend on the processing

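Both TPPP genes were called higher and no other member was called in any alternative that kept the fold change minimum. Without that minimum, 4 members were higher and 4 lower, and 3844 and 4071 genes in all. Members past the adjusted p threshold numbered 4 higher and 4 lower. With library size only, 2 were higher, and with log2(FPKM + 0.1) or log2(FPKM + 1), 2 were lower. Without a count filter, and also with the long-transcript covariate, 5 were lower, as *Map1b* then passed. On log2(FPKM + 1) without filter there were 2 higher and 2 lower, and with LiCl replicate 2 as the sole LiCl sample also 2 and 2. Leaving out 1 sample gave 2 to 4 members higher and 2 to 5 lower. The log2 fold change of *Map1b* was -0.87 without LiCl replicate 2 and -0.81 without control replicate 2. Of all genes, 498 were called higher and 835 lower, against 177 and 141 on log2(FPKM + 1), 171 and 139 on that scale without filter, and 430 lower on log2(FPKM + 0.1). Genes of the 8 functional lists that fell numbered 27, against 11 on log2(FPKM + 1) without filter, 5 with LiCl replicate 2 alone and 16 to 23 when 1 sample was left out. Neither the members nor the 45 named genes of these lists reversed their direction at the threshold under any alternative run. For the 45 genes, 77 values lost the threshold and 5 gained it.

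Deviations from the group means of samples with the same replicate number correlated at 0.031, -0.09 and 0.10 across 18188 genes. These values show no pairing by number, but with 3 samples per group they cannot exclude it. With the replicate number as a block, 3 members were higher and 2 lower, 478 genes were called higher and 801 lower, 2 members were called higher and 0 lower, and 38 genes of the functional lists rose and 20 fell. Depth limits the values of *Tppp* in the controls, *Gm15912*, *Lrrc36* and *Prg4*, which rest on at most 77 counts per control sample.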
